A study of Rattus norvegicus with 172 samples.

Results

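The genes described here are TGF-beta superfamily members of the injured rat spinal cord: the 3 ligands Tgfb1, Tgfb2 and Tgfb3, the type I receptor Tgfbr1, the activin subunit gene Inhba, and the ligands Bmp4 and Gdf10. They were picked by symbol, and where a gene had several probe sets, the brightest on average across cord arrays stood for it. Of the 8 symbols on the list 7 had a probe set annotated to that symbol alone, among 14218 genes in all, and each of the 7 passed the filter on dim genes in every comparison given here. Tgfbr2, the last of the 8, was not analysed here.

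Adult female Wistar rats, 2 months old, had the cord cut at T7-8 and a piece 5 mm long taken out. In the NT-3 tube arm the gap held a chitosan tube loaded with carriers made of chitosan and the neurotrophin NT-3, in the tube alone arm it held an empty chitosan tube, and in lesion control animals it held nothing. Blocks 5 mm long with dura and meninges came from the lesion and from the cord rostral and caudal to it on days 1, 3, 10, 20, 30, 60 and 90, but the lesion was sampled from day 3, and in the tube alone arm on day 3 only. Each array of injured cord carried RNA pooled from 4 animals, and no pool size is given for the normal cord arrays. There were 60 NT-3 tube, 44 tube alone and 60 lesion control arrays, 3 per group and 2 in the rostral tube alone group of day 10. The 3 normal cord arrays, from uninjured animals, serve every comparison with normal cord, so those comparisons are not independent of each other. In bulk tissue more cells of a type and more RNA per cell cannot be told apart.

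TGF-beta ligands are secreted in a latent form that binding proteins hold in the matrix until integrins or proteases release it. Active ligand joins a type II and a type I receptor, and the type I receptor TGFBR1 phosphorylates Smad proteins, which carry the signal to genes of the extracellular matrix. Activin A, a dimer of the INHBA product, uses its own receptor pair and the same Smads, while BMP4 signals through other Smads to the Id genes. GDF10, also called BMP3B, is a divergent member of the BMP branch. In the injured cord TGF-beta signalling is known for its part in inflammation and in the fibrous scar.

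The promoters of 3 members are shown because their time courses contrast: Inhba was high early, Bmp4 and Gdf10 late. They are RefSeq sequences on GRCr8, from 250 bases before to 50 bases after the annotated start, and capitals mark matches to the motifs searched.
Inhba, chr17:53804459-53804758, minus strand: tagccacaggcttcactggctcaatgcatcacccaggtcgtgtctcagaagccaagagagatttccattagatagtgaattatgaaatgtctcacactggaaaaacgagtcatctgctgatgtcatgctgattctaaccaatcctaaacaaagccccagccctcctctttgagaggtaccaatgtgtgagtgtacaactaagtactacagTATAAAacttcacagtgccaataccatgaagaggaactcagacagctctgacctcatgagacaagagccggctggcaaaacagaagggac
Bmp4, chr15:22101884-22102183, minus strand: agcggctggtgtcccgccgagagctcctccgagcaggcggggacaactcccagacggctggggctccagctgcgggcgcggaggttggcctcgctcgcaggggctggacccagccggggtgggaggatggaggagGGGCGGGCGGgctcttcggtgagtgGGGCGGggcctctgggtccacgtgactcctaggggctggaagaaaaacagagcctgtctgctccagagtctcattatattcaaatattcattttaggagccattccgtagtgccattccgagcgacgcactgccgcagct
Gdf10, chr16:9243262-9243561, plus strand: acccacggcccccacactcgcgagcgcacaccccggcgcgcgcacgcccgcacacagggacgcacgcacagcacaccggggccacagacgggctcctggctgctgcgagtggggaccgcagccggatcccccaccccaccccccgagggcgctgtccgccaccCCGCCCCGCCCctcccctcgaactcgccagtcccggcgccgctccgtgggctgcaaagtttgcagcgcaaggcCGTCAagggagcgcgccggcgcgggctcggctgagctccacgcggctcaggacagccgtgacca
The capitals are a TATA box (TATAAA) starting at position -40 of Inhba, 3 GC boxes (GGGCGG) in Bmp4, of which a pair overlap, and in Gdf10 a pair of overlapping GC boxes and the short core of a cyclic AMP response element (TGACG). Both strands were read. Of all 33469 promoter windows of this length, 14.2% held a TATA box, 33.1% a GC box and 21.2% this core. GC content was 45.7% in Inhba, 65.0% in Bmp4 and 76.0% in Gdf10, against a median of 51.7% over all windows. An AP-1 site (TGANTCA) stood in 7.33% of windows, the full response element (TGACGTCA) in 1.83%, a Smad box (GTCTAGAC) in 0.197% and a CAGA box (AGCCAGACA) in 0.368%, and none of these was matched in the windows of the 8 members.

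Values are log2 probe set intensities after RMA, so a difference of 1 is a factor of 2, and levels are not compared between genes. Array medians lay between 7.1 and 7.25. Normal cord carried the cord's own genes, with 8 of 9 neuron, 6 of 6 myelin and 8 of 8 astrocyte markers at or above the filter on dim genes of 6.55, which is no detection call, and 2 of 7 skeletal muscle and 0 of 6 lymphocyte markers. RT1-CE10, an MHC class I gene, lay above 10 in some arms and days, such as 10.79 in the NT-3 tube arm rostrally on day 1, against 6.71 in lesion control animals and 6.55 in normal cord. In lesion control animals it lay above 10 on day 30, at 10.95 rostrally, 11.60 in the lesion and 11.08 caudally. In their lesions of days 10 to 30 it was 2.22 above normal cord (limma, adjusted p = 1.18e-06). Comparisons of arms were therefore repeated on the days on which the means of RT1-CE10 differed by less than 1. Comparisons with normal cord and between segments were not repeated in this way, and the part of this difference in them was not tested. In the rostral NT-3 tube group of day 10, replicate 1 stood apart, with Tgfb3 at 7.71 against 8.79 and 8.68, and Gdf10 at 5.30 against 6.96 and 7.09.

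In untreated lesions most measured members were raised, with the Inhba rises of days 10 to 90 depending on the probe set. On day 3, 6 of 7 members rose against normal cord (of all 11922 genes 42.3% rose and 34.8% fell), and all 7 rose on days 10 to 30 (of all genes 41.7% rose and 36.2% fell) and on days 60 to 90 (of all genes 35.6% rose and 36.6% fell). A call is a Benjamini-Hochberg adjusted p below 0.05 in limma within that comparison. With so many genes called the counts say little, and the sizes differed widely between members. The median difference on days 10 to 30 was 1.33 over the members and 0.06 over all genes tested.

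Gdf10 had the largest log2 differences, measured from a dim signal in normal cord. In lesion control lesions it read 8.11, 8.55 and 8.90 on day 3, 9.92, 9.25 and 9.69 on day 10 and 11.29, 11.59 and 11.32 on day 30, against 5.42, 5.52 and 5.13 in normal cord. No lesion array came near the normal ones, which lay below the filter on dim genes, and the level was much the same on day 90 at 11.29, 11.16 and 11.34. The log2 difference from normal cord was 3.16 ± 0.20 (SE) on day 3, 5.08 ± 0.17 on days 10 to 30 and 5.90 ± 0.18 on days 60 to 90 (adjusted p = 1.41e-23). Because the values in normal cord are dim, no fold is given, and late lesions averaged 4.70 above the filter value itself. Late lesions exceeded day 3 lesions by 2.73 ± 0.18 (adjusted p = 1.14e-14, of all genes 29.3% rose and 37.9% fell in that contrast).

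Tgfb3 had the next largest change on days 10 to 90. Lesion control lesions of day 10 read 11.21, 11.49 and 11.43, against 7.82, 8.07 and 7.91 in normal cord. On day 90 they read 10.26, 10.46 and 10.32, still clear of normal cord. The differences from normal cord were 2.34 ± 0.13 on day 3, 3.26 ± 0.11 on days 10 to 30 and 2.52 ± 0.11 on days 60 to 90 (adjusted p = 3.10e-19 for the last).

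Tgfb1 and Tgfb2 were highest at the first sampling of the lesion. Tgfb1, a ligand made by macrophages and stored in platelets, stood at 8.83, 9.17 and 9.16 on day 3 in lesion control lesions, against 6.44, 6.50 and 6.34 in normal cord, a rise of 2.63 ± 0.17. All 3 normal cord values lay below the filter on dim genes, which the day 3 lesions exceeded by 2.50 on average. On days 60 to 90 the difference was 1.55 ± 0.14, and late lesions were below day 3 lesions by 1.08 ± 0.14 (adjusted p = 7.22e-08). Tgfb2 rose by 1.71 ± 0.16 on day 3 and by 0.92 ± 0.14 on days 60 to 90, and its late level fell below that of day 3 by 0.80 ± 0.14 (adjusted p = 7.42e-06). The receptor Tgfbr1 rose by 1.35 ± 0.12 on day 3 and by 0.91 ± 0.10 on days 60 to 90.

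Inhba and Bmp4 ran in opposite directions over time. Inhba read 10.69, 10.78 and 11.11 on day 3 in lesion control lesions, against 8.88, 8.84 and 8.85 in normal cord, a rise of 2.00 ± 0.19. By day 90 it read 9.17, 9.03 and 9.09, and late lesions fell below day 3 lesions by 1.54 ± 0.17 (adjusted p = 1.54e-09). Bmp4 missed the threshold on day 3 (0.38 ± 0.22, adjusted p = 0.113). It rose by 1.33 ± 0.18 on days 10 to 30 and by 1.72 ± 0.19 on days 60 to 90, and its day 90 arrays of 10.21, 10.61 and 10.42 lay above all 3 of normal cord at 8.28, 8.22 and 8.43.

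A second Inhba probe set gave the day 3 rise only. It differed from normal cord by 1.58 on day 3 (adjusted p = 3.82e-06), 0.00 on days 10 to 30 (adjusted p = 0.993) and -0.07 on days 60 to 90 (adjusted p = 0.794). The Inhba rises of days 10 to 90 in untreated lesions thus rest on the brighter probe set, although the group means of both sets correlated over the 56 cord groups (Pearson r = 0.907). The same r was 0.892 for the sets of Tgfb2 and 0.694 for those of Tgfbr1, whose second set did not exceed a group mean of 5.67. That Tgfbr1 set lay below the filter on dim genes, so no Tgfbr1 test was repeated with it alone.

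**Figure D1:**
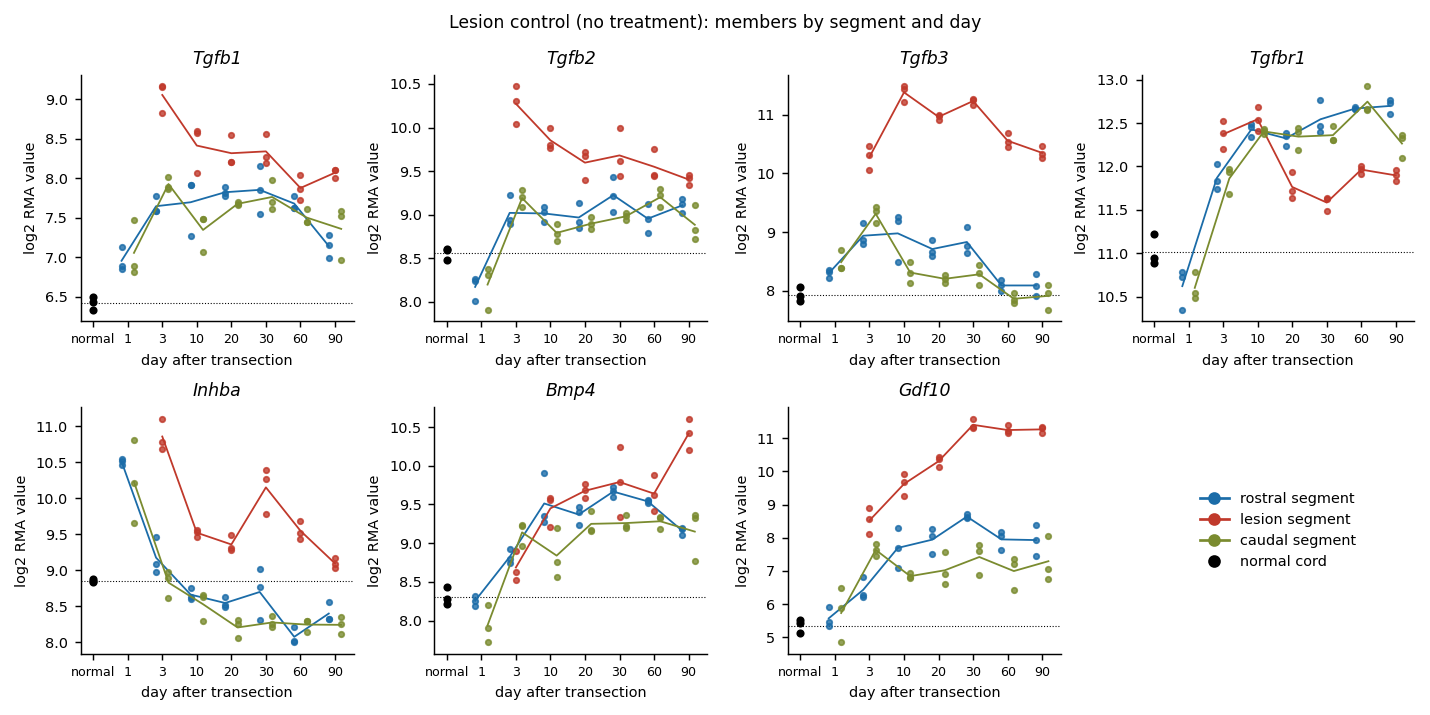
Log2 RMA value (vertical axis) of each member in lesion control arrays by day, with normal cord marked. Points are arrays, lines join group means and colours are segments. Gdf10 climbs in the lesion to 11.29 to 11.59 on day 30, and Inhba is highest at the first sampling.

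Marker genes of other cell types moved with these changes. In lesion control lesions of days 10 to 30, 7 of 8 fibroblast and meningeal markers, 8 of 10 microglia and macrophage markers and 6 of 7 skeletal muscle markers rose against normal cord, while 8 of 8 neuron and 6 of 6 myelin markers fell. The fibroblast list, averaged relative to normal cord, ran from 2.90 to 3.16 in these lesion arrays and from -0.14 to 0.10 in normal cord. The muscle list ran from 2.58 to 5.08 in the lesion arrays and from -0.05 to 0.07 in normal cord. Their part in the members' changes was not tested.

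Beyond the gap the response was smaller for most members and differed by gene. Tgfbr1 rose more in the rostral segment than in the lesion on days 10 to 30 and 60 to 90. In the rostral segment of lesion control animals 5 of 7 members rose on days 1 to 3 (of all 11553 genes 28.9% rose and 30.1% fell), 6 rose on days 10 to 30 (of all genes 30.7% rose and 32.4% fell), and 5 rose and 1 fell on days 60 to 90 (of all genes 25.4% rose and 32.5% fell). In the caudal segment 5 rose on days 1 to 3 (of all 11479 genes 30.8% rose and 30.4% fell), 6 rose and 1 fell on days 10 to 30 (of all genes 28% rose and 29.3% fell), and 5 rose and 1 fell on days 60 to 90 (of all genes 24% rose and 28.8% fell). The member that fell was Inhba in each case. Over single days and all segments 109 of 140 member tests rose and 9 fell (of the tests over all genes 29.3% rose and 29.7% fell). In NT-3 tube animals against normal cord 114 of 140 member tests rose and 8 fell (of the tests over all genes 31.2% rose and 31.1% fell). In tube alone animals against normal cord 81 of 105 member tests rose and 3 fell (of the tests over all genes 27.9% rose and 31% fell).

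Inhba marked the first day. Rostral lesion control arrays read 10.52, 10.55 and 10.47 on day 1, against 8.88, 8.84 and 8.85 in normal cord, a rise of 1.66, and the caudal rise was 1.37. On day 3 the rostral arrays read 8.98, 9.46 and 9.09, and the difference from normal cord no longer passed the test in either segment (0.32 rostral, -0.03 caudal). Day 3 fell below day 1 by 1.34 ± 0.23 rostrally (adjusted p = 7.11e-06) and 1.40 ± 0.19 caudally (adjusted p = 3.31e-08), in a contrast chosen after the values were seen (of all genes 18.7% rose and 14.5% fell rostrally, 24.2% rose and 21.1% fell caudally). On days 60 to 90 Inhba fell below normal cord by 0.62 ± 0.19 rostrally (adjusted p = 0.00585) and 0.61 ± 0.16 caudally (adjusted p = 0.00138). With the second probe set the rise of days 1 to 3 was 0.10 rostrally (adjusted p = 0.610) and 0.01 caudally (adjusted p = 0.985), and the late differences were -0.20 (adjusted p = 0.272) and -0.38 (adjusted p = 0.0920). In that set day 3 differed from day 1 by -0.23 rostrally (adjusted p = 0.367) and by -0.57 caudally (adjusted p = 0.0325). Its days 60 to 90 differed from days 1 to 3 by -0.305 rostrally (adjusted p = 0.0470) and -0.385 caudally (adjusted p = 0.0382). On day 1 the second set averaged 7.41 in the rostral segment of lesion control animals and 7.20 in normal cord. The Inhba rise of days 1 to 3 over normal cord outside the lesion thus rests on the brighter set. The caudal fall from day 1 to day 3 was called with both sets.

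With the probe sets used, Tgfbr1 and Tgfb2 dipped on the day Inhba peaked. Rostral Tgfbr1 read 10.35, 10.73 and 10.78 on day 1 in lesion control animals, against 11.22, 10.89 and 10.94 in normal cord, and fell by 0.40. On day 3 it read 12.03, 11.74 and 11.83, and it was 1.41 ± 0.09 above normal cord on days 10 to 30 and 1.67 ± 0.09 above it on days 60 to 90 (adjusted p = 2.58e-20). Caudal Tgfbr1 fell by 0.42 on day 1 and rose by 1.49 ± 0.09 on days 60 to 90. Because days 1 and 3 lie on opposite sides of normal cord, the small rises averaged over both days (0.23 rostral, 0.21 caudal) describe neither day. The rostral rise was lost in 5 of 9 refits without an array, those without day 1 replicates 2 or 3, day 3 replicate 1 or normal cord replicates 2 or 3 (adjusted p 0.0748 to 0.202). The caudal one was lost in 5 of 9, those without day 1 replicate 3, day 3 replicates 2 or 3 or normal cord replicates 2 or 3 (adjusted p 0.0716 to 0.222). Tgfb2 fell on day 1 by 0.39 rostrally and 0.36 caudally, and rose on day 3 by 0.46 rostrally and 0.63 caudally. Rostrally its day 3 exceeded day 1 by 0.85 ± 0.13, and by 0.24 with its second probe set (adjusted p = 0.113). That set also rose over days 1 to 3 in the rostral segment (0.23, adjusted p = 0.0488), where the set used gave 0.04. With so small a step to day 3 it lay above normal cord on rostral day 1, so the rostral Tgfb2 dip rests on the set used. Caudally the second set differed from normal cord by 0.14 over days 1 to 3 (adjusted p = 0.377), and its day 3 exceeded day 1 by 0.40 (adjusted p = 0.0363). It missed the threshold on caudal days 10 to 30 (0.28, adjusted p = 0.0587), where the set used gave 0.33.

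Tgfb3 and Gdf10 parted late. Rostral Tgfb3 rose by 1.00 on day 3 and 1.04 on day 10, but was 0.16 ± 0.16 from normal cord on days 60 to 90 (adjusted p = 0.415). On days 60 to 90 it was below days 1 to 3 by 0.53 ± 0.13 rostrally (of all genes 19.6% rose and 29.8% fell) and 1.01 ± 0.12 caudally (of all genes 21.3% rose and 28.5% fell). Its caudal rise of days 10 to 30, 0.33 ± 0.14, was lost in 5 of 12 refits, those without day 10 replicate 1, day 20 replicate 3, day 30 replicate 1 or normal cord replicates 1 or 3 (adjusted p 0.0530 to 0.159). Gdf10 stayed up: rostral lesion control arrays read 7.94, 8.39 and 7.46 on day 90, against 5.42, 5.52 and 5.13 in normal cord, with rises of 2.73 ± 0.26 on days 10 to 30 and 2.58 ± 0.28 on days 60 to 90. Its rostral call of days 1 to 3 (0.65 ± 0.28) sets a mean of 6.00 against 5.36 in normal cord, both below the filter on dim genes, and was lost in 5 of 9 refits, those without replicate 2 of day 1 or of day 3 or without any 1 of the normal cord arrays (adjusted p 0.0521 to 0.154).

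Bmp4 and Tgfb1 were also raised outside the lesion. Rostral Bmp4 rose by 1.21 ± 0.11 on days 10 to 30 and 1.04 ± 0.12 on days 60 to 90, and caudal Bmp4 by 0.81 ± 0.14 and 0.91 ± 0.15. Tgfb1 rose against normal cord on each of the 7 rostral days, by 0.53 to 1.43 over normal values below the filter.

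Set against the rostral segment of untreated animals, the lesion had 6 of 7 members higher on day 3 (of all 11989 genes 37.1% rose and 29.5% fell), 5 higher and 1 lower on days 10 to 30 (of all genes 40.8% rose and 34.5% fell), and 6 higher and 1 lower on days 60 to 90 (of all genes 34% rose and 32.6% fell). On days 60 to 90 Gdf10 was 3.31 ± 0.25 higher in the lesion and Tgfb3 2.36 ± 0.12 higher (adjusted p = 5.86e-35). Tgfbr1 was the exception. It was 0.50 ± 0.11 higher in the lesion on day 3, but on day 30 it read 11.64, 11.49 and 11.62 in the lesion, against 12.40, 12.47 and 12.76 in the rostral segment. It fell below the rostral level by 0.47 ± 0.06 on days 10 to 30 and by 0.75 ± 0.08 on days 60 to 90 (adjusted p = 5.60e-16). With the second probe sets the late difference was -0.21 for Tgfb2 (adjusted p = 0.0961), against 0.45 with the set used, and 0.13 for Inhba (adjusted p = 0.476), against 1.08. On days 10 to 30 it was 0.27 for Inhba (adjusted p = 0.0560), against 1.04 with the set used. The second Tgfbr1 set was too dim to be tested, so the Tgfbr1 differences rest on the set used.

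Caudal and rostral cord differed less. No member was called on days 1 to 3 (limma, of all genes 0.0167% rose and 0.00834% fell, 3 members with an unadjusted p below 0.05) or on days 60 to 90 (of all genes 0.993% rose and 1.35% fell, 2 members). On days 10 to 30 (of all genes 2.53% rose and 4.45% fell) Tgfb3 fell below its rostral level by 0.57 ± 0.10, Gdf10 by 1.00 ± 0.20 and Bmp4 by 0.40 ± 0.10. The Bmp4 call was lost without replicate 2 of the caudal arrays (adjusted p = 0.0669) and without replicate 1 of the rostral ones (adjusted p = 0.0749).

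With the NT-3 tube the measured members differed from untreated lesions. Tube alone lesions were sampled on day 3 only, so in lesions from day 10 on NT-3 and the tube itself cannot be told apart. Over days 3 to 90 all 7 members differed between NT-3 tube and lesion control lesions, 5 higher and 2 lower, where of all 11922 genes 23% rose and 19% fell. Inhba rose by 1.44 ± 0.08 (adjusted p = 2.09e-15), Bmp4 by 0.52 ± 0.09, Tgfb1 by 0.42 ± 0.07, Tgfb2 by 0.42 ± 0.07 and Tgfbr1 by 0.20 ± 0.05, while Tgfb3 fell by 0.62 ± 0.05 and Gdf10 by 0.50 ± 0.08. All 7 calls held in each of the 7 refits without the arrays of 1 replicate number of an arm on all days and on days 10, 30 and 60, the days matched for RT1-CE10.

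Inhba was higher on every lesion day. NT-3 tube lesions read 12.40, 11.88 and 11.33 on day 20, against 9.49, 9.28 and 9.31 in lesion control lesions. On day 90 NT-3 tube lesions read 10.48, 10.46 and 9.91, against 9.17, 9.03 and 9.09 in lesion control lesions. The arms did not overlap on any of the 6 days, and the single-day differences ran from 0.95 to 2.51, each of them called. Over single days and all segments 27 of 140 member tests rose and 10 fell (of the tests over all genes 5.36% rose and 4.23% fell). The second probe set gave 1.03 over all days (adjusted p = 6.14e-09).

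Gdf10 changed sides. Days 3, 20 and 90 in the lesion were not matched for RT1-CE10. On day 3 NT-3 tube lesions read 9.69, 10.00 and 9.52, against 8.11, 8.55 and 8.90 in lesion control lesions, a rise of 1.22. On day 30 NT-3 tube lesions read 10.18, 10.07 and 10.14, against 11.29, 11.59 and 11.32 in lesion control lesions, and Gdf10 fell by 1.27. By day 90 the arms overlapped (-0.14). Tgfb3 had the dip without the early gain: its difference was -0.03 on day 3 and -0.11 on day 90, neither called, while it fell by 1.22 on day 10 and 1.10 on day 30. NT-3 tube lesions stayed between 9.64 and 10.44 for Tgfb3 on all days.

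Tgfbr1 and Bmp4 also shifted with time. In NT-3 tube against lesion control lesions Tgfbr1 fell by 0.43 on day 3, rose by 0.51 on day 20 and 0.64 on day 30, and differed by -0.02 on day 90. Bmp4 rose by 1.03 on day 3, differed by -0.02 on day 10 and rose by 0.92 on day 90, when NT-3 tube lesions read 11.44, 11.29 and 11.26, against 10.21, 10.61 and 10.42 in lesion control lesions. The NT-3 tube difference of days 60 to 90 minus that of days 10 to 30, a contrast chosen after the values were seen, was 0.88 ± 0.12 for Tgfb3, 0.79 ± 0.19 for Gdf10, 0.72 ± 0.20 for Bmp4 and -0.38 ± 0.11 for Tgfbr1, all called (of all genes 10.1% rose and 5.7% fell). Within the NT-3 tube arm, in a contrast also chosen after the values were seen (of all genes 23.7% rose and 30.3% fell), lesions of days 60 to 90 were below those of day 3 by 1.16 ± 0.17 for Inhba and 1.08 ± 0.14 for Tgfb2, and above them by 1.16 ± 0.19 for Bmp4 and 1.15 ± 0.18 for Gdf10. Tgfb1 (0.00 ± 0.14), which declined in untreated lesions, and Tgfb3 (-0.01 ± 0.11) did not pass that test.

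**Figure D2:**
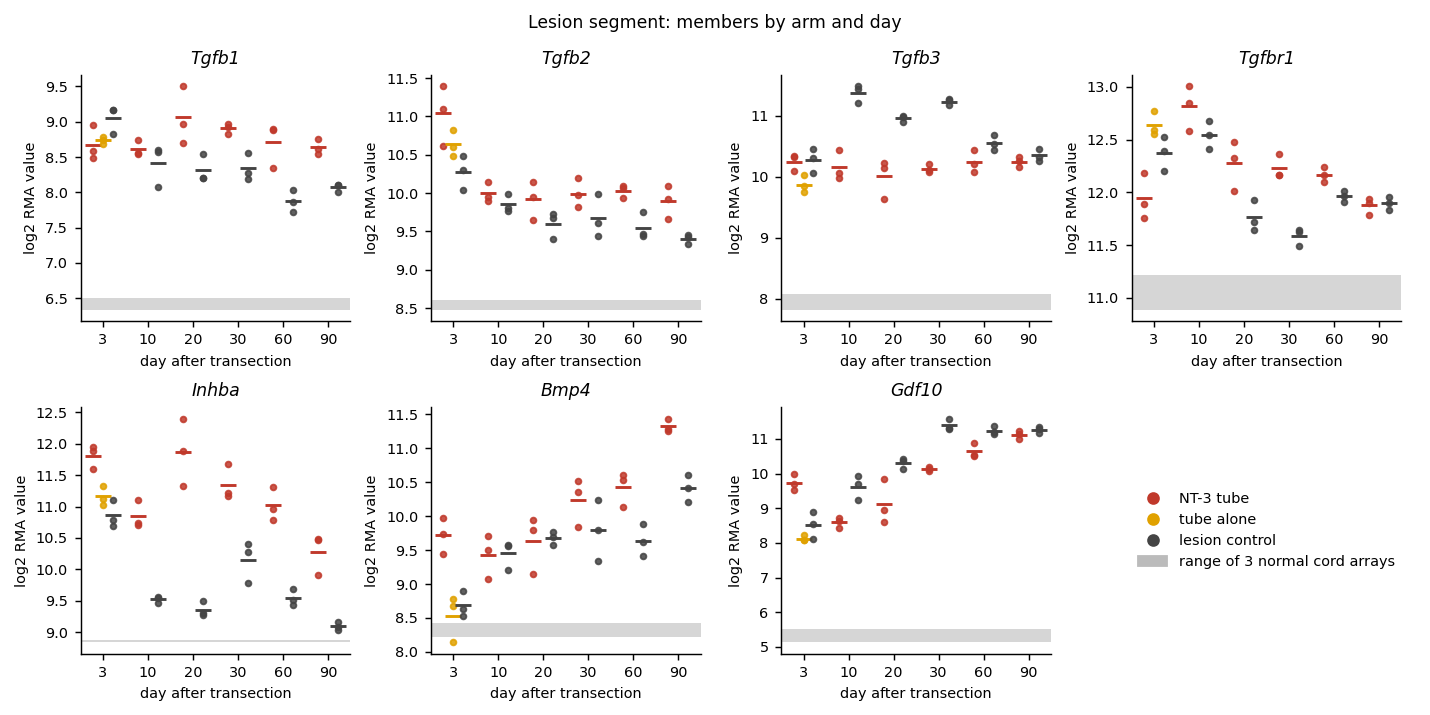
Log2 RMA value (vertical axis) of each member in the lesion segment by day, with NT-3 tube, tube alone (day 3 only) and lesion control arrays. Points are arrays, short bars group means and grey bands the range of the 3 normal cord arrays. Inhba lies higher with the NT-3 tube on all 6 days, and Tgfb3 and Gdf10 lie lower on days 10 to 30.

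Markers of other cells differed between these lesions too. 7 of 7 skeletal muscle, 8 of 8 neuron, 6 of 6 myelin and 5 of 5 endothelial markers fell in NT-3 tube against lesion control lesions, and 6 of 6 lymphocyte markers rose. The muscle list, relative to normal cord, ran from -0.90 to 2.26 in NT-3 tube and from 1.94 to 5.60 in lesion control lesions on days 10 to 90. On day 3, when Inhba already differed by 0.95, the muscle list ran from 0.90 to 4.30 in NT-3 tube and from 0.60 to 5.51 in lesion control lesions. The fibroblast list overlapped on days 10 to 90, at 2.69 to 3.24 in NT-3 tube and 2.52 to 3.16 in lesion control lesions. The part of these cells in the members' differences was not tested.

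Outside the lesion few members differed between NT-3 tube and lesion control animals over all days. In the rostral segment Gdf10 fell by 0.45 ± 0.12 (adjusted p = 0.0330, of all genes 1.77% rose and 1.27% fell), and that call was lost in 6 of 6 refits without a replicate (adjusted p 0.0552 to 0.119). Rostral Inhba, at 0.23 ± 0.09 (adjusted p = 0.120), passed without NT-3 tube replicate 1 (adjusted p = 0.0192). On days matched for RT1-CE10 the rostral difference was -0.76 for Gdf10, -0.50 for Tgfb3 and -0.28 for Bmp4, all called (adjusted p = 0.0123, 0.00513 and 0.0395). In the caudal segment Inhba rose by 0.23 ± 0.07 (adjusted p = 0.0291, of all genes 3.95% rose and 6.25% fell), a call lost on matched days (adjusted p = 0.350), with the second probe set (adjusted p = 0.518), and without lesion control replicates 1 or 2 or NT-3 tube replicate 3 (adjusted p 0.10 to 0.20). On day 1 rostral Inhba read 11.39, 12.05 and 12.12 with the NT-3 tube, against 10.52, 10.55 and 10.47 in lesion control animals, a rise of 1.34, on a day not matched for RT1-CE10. Tube alone animals read 11.30, 10.86 and 11.16 that day (0.59 from lesion control, adjusted p = 0.0630). Caudally on day 1 the NT-3 tube difference was 0.24 (adjusted p = 0.455). The second rostral set averaged 8.42 in the NT-3 tube arm and 7.41 in lesion control animals.

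The NT-3 tube differences were compared between segments over days 3 to 90, in contrasts chosen after the values were seen. Lesion minus rostral was called for 6 of 7 members (of all genes 14.3% rose and 15.2% fell), at 1.39 ± 0.12 for Inhba, 0.66 ± 0.10 for Bmp4 and -0.29 ± 0.10 for Tgfb3, and not for Gdf10 (0.14 ± 0.20, adjusted p = 0.650). RT1-CE10 differed by 0.52 in the same contrast (adjusted p = 0.0244), and matched days were not run for contrasts between differences. The Tgfb1 call (0.28 ± 0.11) was lost without replicates 1 or 2 of either segment's lesion control arrays (adjusted p 0.0505 to 0.130), and the Tgfb3 call without rostral lesion control replicate 3 (adjusted p = 0.0746). Lesion minus caudal was called for Inhba (1.21), Bmp4 (0.59), Tgfb2 (0.35) and Tgfb3 (-0.51), where of all genes 13.3% rose and 10.7% fell. Tgfb1 missed it at 0.26 ± 0.11 (adjusted p = 0.060) and passed without caudal lesion control replicate 2 (adjusted p = 0.0450).

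**Figure D3:**
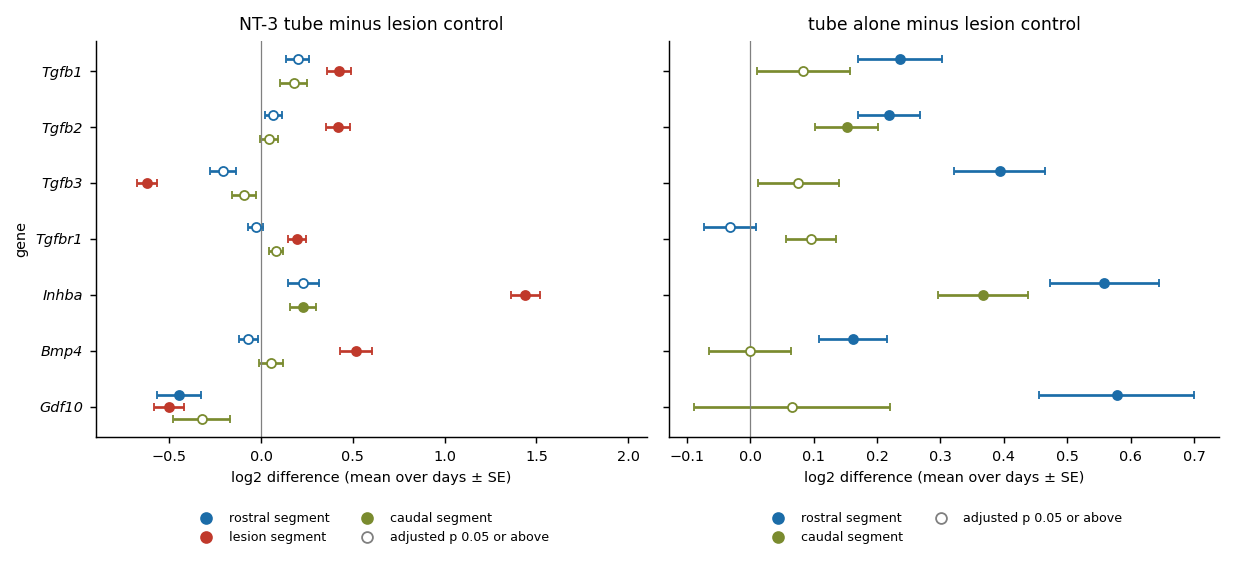
Log2 difference from lesion control averaged over days, with its SE, for the NT-3 tube and the tube alone, by member and segment. Filled points had an adjusted p below 0.05. Inhba stands at 1.44 in the lesion with the NT-3 tube, and 6 of 7 members were called higher in the rostral segment with the tube alone.

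The empty tube went with higher levels rostral to the gap. Against lesion control 6 of 7 members rose over all days (of all genes 12.2% rose and 18.3% fell): Gdf10 by 0.58 ± 0.12, Inhba by 0.56 ± 0.09, Tgfb3 by 0.39 ± 0.07, Tgfb1 by 0.24 ± 0.07, Tgfb2 by 0.22 ± 0.05 and Bmp4 by 0.16 ± 0.05. Over single days and all segments 9 of 105 member tests rose and 1 fell (of the tests over all genes 2.66% rose and 2.98% fell). In the rostral segment 0 members were called on any single day from 1 to 30 (limma, 5 of 35 tests with an unadjusted p below 0.05), 3 rose on day 60, and on day 90 5 rose and Tgfbr1 fell by 0.38. The shares of all genes called on these single days are not given here, and the pooled shares do not stand for them. The median difference was 0.35 over the members and -0.04 over all genes on day 60, and 0.64 and 0.03 on day 90. On day 90 Gdf10 read 10.02, 9.51 and 9.88 in tube alone animals, against 7.94, 8.39 and 7.46 in lesion control animals. The tube alone difference of days 60 to 90 minus that of days 1 to 30, chosen after the values were seen, was 1.64 ± 0.27 for Gdf10, 0.62 ± 0.16 for Tgfb3 and 0.52 ± 0.12 for Bmp4, all called (of all genes 5.55% rose and 3.71% fell). RT1-CE10 was higher by 0.89 in this contrast (adjusted p = 0.00385), and days 1 and 60 of it were not matched. On days matched for RT1-CE10 (all rostral days but 1 and 60) the calls of Bmp4 (0.10, adjusted p = 0.325) and Tgfb1 (0.21, adjusted p = 0.0575) were lost. The Bmp4 call was also lost without tube alone replicate 1 or lesion control replicates 2 or 3 (adjusted p 0.0585 to 0.20), and the Tgfb1 call without tube alone replicate 2 (adjusted p = 0.0515).

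In the same comparison 7 of 8 fibroblast and meningeal and 5 of 7 skeletal muscle markers rose, and 8 of 8 neuron markers fell. On days 60 to 90 the fibroblast list ran from 1.77 to 2.12 in tube alone and from 0.89 to 1.32 in lesion control animals, and the muscle list from 0.39 to 3.37 in tube alone and from -0.71 to -0.17 in lesion control animals. Their part in the members' rises was not tested. In the caudal segment Inhba rose by 0.37 ± 0.07 and Tgfb2 by 0.15 ± 0.05 (of all genes 3.66% rose and 4.99% fell). The Inhba difference was 0.02 with its second probe set (adjusted p = 0.886), and the Tgfb2 call was lost without tube alone replicate 3 or any of the lesion control replicates (adjusted p 0.0659 to 0.245) and with the second probe set (adjusted p = 0.0612). In a contrast chosen after the values were seen, rostral and caudal tube alone differences did not differ by a called amount for any member (limma, of all genes 0.0667% rose and 0.0167% fell, 3 members with an unadjusted p below 0.05). In the lesion on day 3 no member was called between tube alone and lesion control (limma, of all genes 1.88% rose and 5.22% fell, 3 members with an unadjusted p below 0.05), with Tgfb3 nearest at -0.41 ± 0.13 (adjusted p = 0.0501; 0.0181 without lesion control replicate 1). Inhba stood at 0.30 ± 0.19 there, and its second probe set fell by 0.86 (adjusted p = 0.0475).

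Set against the empty tube, the NT-3 tube had 5 members lower in the rostral segment (of all genes 15.6% rose and 7.54% fell). Over single days and all segments 4 of 105 member tests rose and 15 fell (of the tests over all genes 4.4% rose and 2.53% fell). Rostral Gdf10 fell by 1.02 ± 0.12, Tgfb3 by 0.60 ± 0.07, Inhba by 0.33 ± 0.09, Bmp4 by 0.23 ± 0.05 and Tgfb2 by 0.15 ± 0.05. On matched days, 1 to 30, Gdf10 (-0.61, adjusted p = 0.0107) and Tgfb3 (-0.47, adjusted p = 0.000774) kept their calls and the other 3 lost them, at -0.15 for Inhba (adjusted p = 0.394), -0.12 for Bmp4 (adjusted p = 0.246) and -0.15 for Tgfb2 (adjusted p = 0.125), the last being -0.15 over all days. The Inhba call was also lost with the second probe set (adjusted p = 0.149), and the Tgfb2 call without NT-3 tube replicates 1 or 3 or tube alone replicate 3 (adjusted p 0.0527 to 0.0822). On day 30 rostral Tgfb3 read 7.90, 8.05 and 7.73 with the NT-3 tube, against 8.99, 9.15 and 8.48 with the tube alone, and the arms did not overlap.

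In the lesion on day 3 (of all genes 16% rose and 7.47% fell) the NT-3 tube had Gdf10 1.61 ± 0.20 higher than the tube alone, Bmp4 1.18 ± 0.22 higher, Inhba 0.65 ± 0.19 higher and Tgfb3 0.38 ± 0.13 higher, while Tgfbr1 fell by 0.69 ± 0.12. RT1-CE10 was 1.28 higher in the same comparison (adjusted p = 0.0308), so day 3 was not matched, and its part was not tested. The Tgfb3 call was lost without NT-3 tube replicate 3 or tube alone replicates 1 or 2 (adjusted p 0.0784 to 0.141) and the Inhba call without NT-3 tube replicate 3 or tube alone replicate 2 (adjusted p 0.0523 to 0.0659). Tgfb2, at 0.41 ± 0.16 (adjusted p = 0.0620), passed without NT-3 tube replicate 1 (adjusted p = 0.00871) or tube alone replicate 3 (adjusted p = 0.0441). In that comparison 7 of 10 microglia and macrophage markers fell and 3 of 7 muscle markers rose, and their part was not tested. In the caudal segment no member was called (limma, of all genes 1.96% rose and 1.97% fell, 3 members with an unadjusted p below 0.05). Without tube alone replicate 2, Gdf10 (-0.39 with it, -0.50 without it) and Tgfb3 (-0.17 with it, -0.20 without it) were called.

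**Figure D4:**
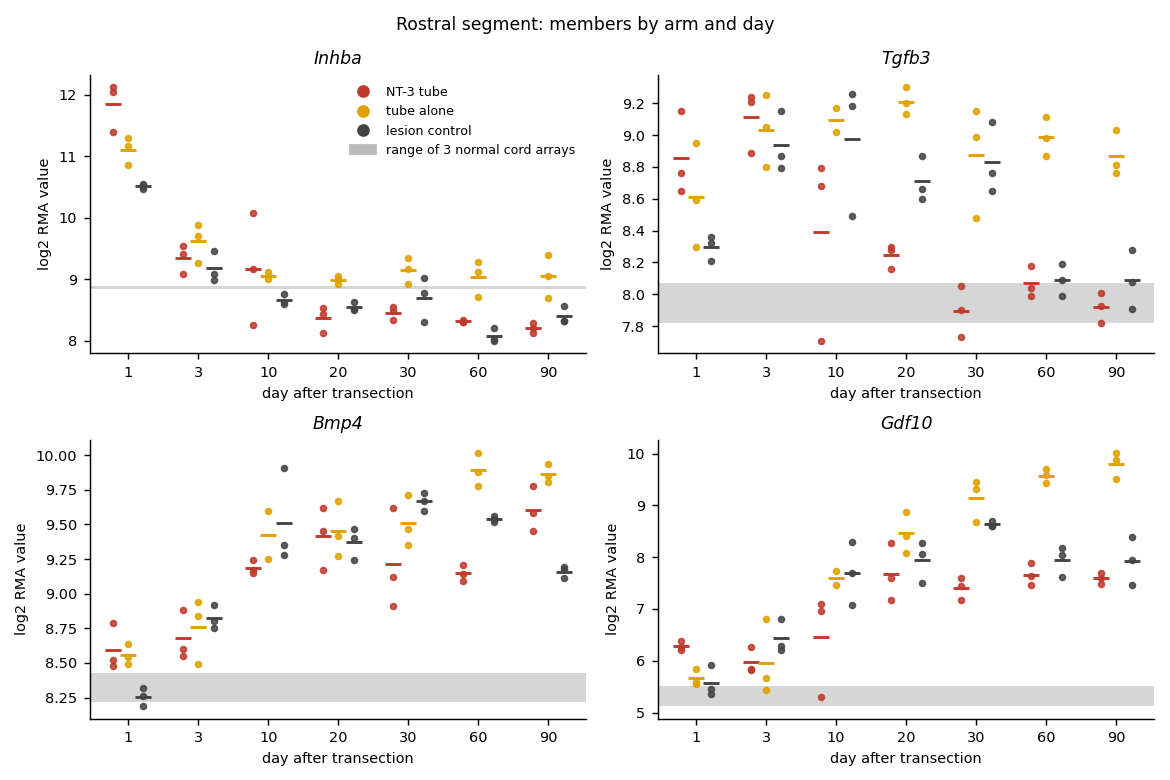
Log2 RMA value (vertical axis) of Inhba, Tgfb3, Bmp4 and Gdf10 in the rostral segment by day, with NT-3 tube, tube alone and lesion control arrays. Points are arrays, short bars group means and grey bands the range of the 3 normal cord arrays. Gdf10 in the tube alone arm reads 9.51 to 10.02 on day 90, above lesion control arrays at 7.46 to 8.39.

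Other genes of the pathway, from 7 lists, were described in untreated lesions on days 10 to 30, where of all genes 41.7% rose and 36.2% fell. Latency and activation genes rose in 8 of 9 cases (median 2.34), with the latent TGF-beta binding proteins Ltbp2 at 3.91 ± 0.14 and Ltbp1 at 3.53 ± 0.12, and Lrrc32, which tethers latent TGF-beta to cell surfaces, at 2.58 ± 0.19. Secreted antagonists rose in 12 of 13 (median 1.55), with the BMP antagonist Sostdc1 at 3.63 ± 0.25, the activin antagonist Fst at 3.59 ± 0.27 and Fstl1 at 3.10 ± 0.08. The antagonist that fell was Nog, by 0.70 ± 0.18, named after its value was seen. Known TGF-beta targets rose in 10 of 11 (median 4.05), with the fibrillar collagens Col1a1 at 5.30 ± 0.10, Col1a2 at 4.61 ± 0.07 and Col3a1 at 4.53 ± 0.08. The target that fell was the inhibitory Smad7, by 0.77 ± 0.11, also named after its value was seen. Some genes stand on 2 lists: Smad7 and Skil on those of Smads and TGF-beta targets, Smad6 and Smad9 on those of Smads and BMP targets, Bambi on those of antagonists and BMP targets, Dcn on those of antagonists and fibroblast markers, and Ltbp2 on those of latency genes and TGF-beta targets. Normal cord means lay below the filter on dim genes for Fst, Lrrc32, Acvrl1, Gdf15 and Bmp7 among the genes named, and rostral Acvrl1 lay below it in lesion control animals too.

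Receptors, Smads, other ligands and BMP targets had members that rose and members that fell. Of 11 other receptors 5 rose and 5 fell, with Acvrl1 at 2.82 ± 0.14 and Eng at 2.09 ± 0.11, both known from endothelial cells, and Acvr1 at 1.24 ± 0.12. Of 13 Smads and regulators 10 rose and 3 fell: the corepressor Tgif1 rose by 2.32 ± 0.09 and Smad3 by 1.26 ± 0.13, and Smad9 fell by 1.39 ± 0.17. Of 9 other ligands 5 rose, with Bmp6 at 2.51 ± 0.11, Gdf15 at 2.17 ± 0.22 and Bmp7 at 2.14 ± 0.12, and 3 fell. Of 9 BMP targets 4 rose, with Id3 at 2.51 ± 0.11 and Id1 at 1.75 ± 0.13, and 3 fell, Id4 by 1.56 ± 0.25.

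In the rostral segment on the same days, where of all genes 30.7% rose and 32.4% fell, TGF-beta targets rose in 9 of 11 (Col3a1 3.51 ± 0.24, Col1a1 3.25 ± 0.31, Col1a2 3.10 ± 0.25). Antagonists rose in 9 of 11, with Dcn, a proteoglycan that binds TGF-beta, at 2.08 ± 0.16, Sostdc1 at 1.87 ± 0.23 and Nbl1 at 1.79 ± 0.14. Latency genes rose in 8 of 9, with Ltbp1 at 2.04 ± 0.17, Nrros at 1.61 ± 0.13 and Ltbp2 at 1.38 ± 0.17. Ligands rose in 4 of 8, with Bmp6 at 1.87 ± 0.16, Bmp7 at 1.61 ± 0.16 and Gdf15 at 1.54 ± 0.21, and fell in 3. Receptors rose in 4 of 11, with Eng at 1.05 ± 0.13 and Acvrl1 at 0.91 ± 0.16, and fell in 5, Bmpr2 by 0.65 ± 0.22. Smads and regulators rose in 5 of 13, with Tgif1 at 1.69 ± 0.12 and Smad3 at 0.70 ± 0.12, and fell in 3, Smad9 by 0.69 ± 0.11. BMP targets rose in 4 of 9, with Id3 at 1.82 ± 0.10 and Id1 at 1.24 ± 0.14, and fell in 1.

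**Figure D5:**
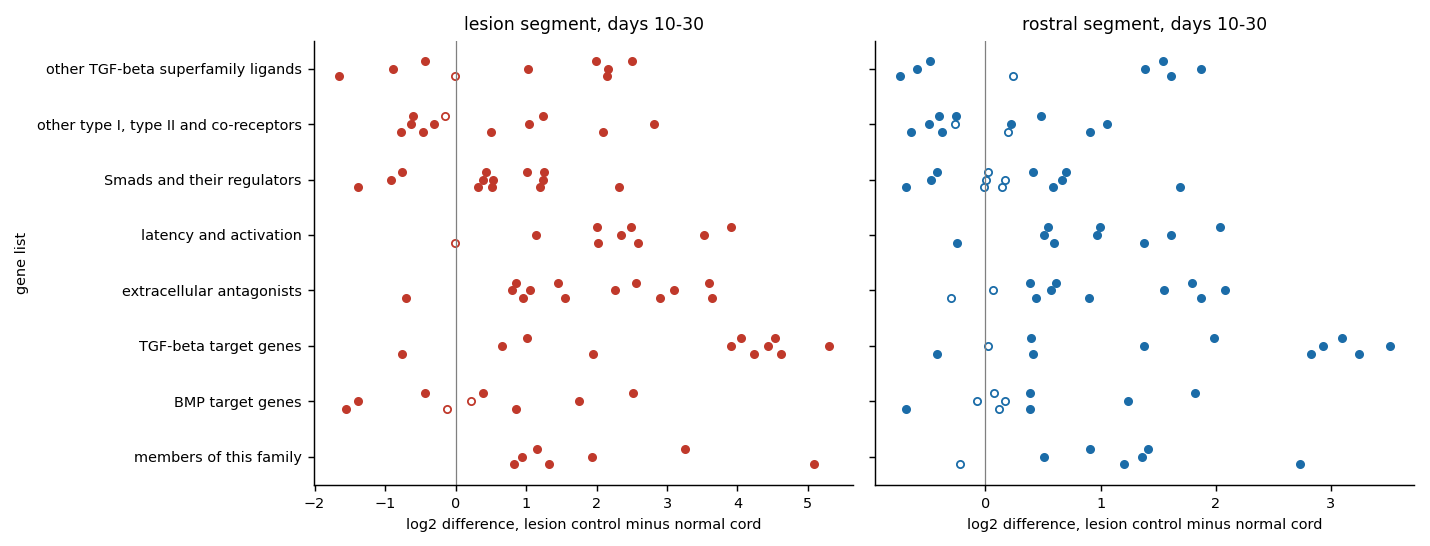
Log2 difference of lesion control from normal cord on days 10 to 30 for the genes of 7 pathway lists and for the members, in the lesion and rostral segments. Each point is a gene, and filled points had an adjusted p below 0.05. In the lesion 10 of 11 TGF-beta targets and 12 of 13 antagonists were called higher.

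Over all genes tested the median was 0.06 in the lesion and -0.02 in the rostral segment on those days. Between NT-3 tube and lesion control lesions TGF-beta targets rose in 5 of 11 and fell in 1 (median 0.11), antagonists rose in 6 of 13 and fell in 2, latency genes rose in 4 of 9 and fell in 0, and BMP targets rose in 2 of 9 and fell in 5 (median -0.20), beside a median of 0.01 over all genes, of which 23% rose and 19% fell. With the tube alone, rostral TGF-beta targets rose in 9 of 11 against lesion control and fell in 0 (median 0.60; of all genes 12.2% rose and 18.3% fell).

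Members did not share a single time course. Over the 56 cord group means Pearson r was 0.861 between Tgfb1 and Tgfb2, 0.838 between Bmp4 and Gdf10 and 0.723 between Tgfb3 and Gdf10, but -0.516 between Tgfbr1 and Inhba and -0.03 between Inhba and Bmp4. Each pair was read from the same arrays, so these are descriptions without a p. Among 11989 genes the most alike in pattern, by the same r, were Tor4a (0.957) and Ticam1 (0.957) for Tgfb1, Plod1 (0.93) and Crlf3 (0.909) for Tgfb2, Lamc1 (0.958) and Lrrc32 (0.957) for Tgfb3 and Tpp1 (0.946) and Abca1 (0.945) for Tgfbr1. They were Ugdh (0.928) and Lrrfip2 (0.919) for Inhba, Ephx1 (0.916) and Cpxm2 (0.913) for Bmp4 and Aoc3 (0.973) and Fmo1 (0.963) for Gdf10.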

How the data were processed

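RNA of spinal cord blocks was hybridised to Affymetrix rat expression arrays, 167 of cord and 5 of a reference RNA. The deposited values are log2 intensities of 31099 probe sets, made with Affymetrix Expression Console and RMA per the submitters' processing notes, which name no version. They run from 2.6 to 15.0. Of the probe sets 20832 carry 1 gene symbol in GEO's platform annotation, 436 several and 9831 are not listed in it. The gene table holds 14218 genes, each read from its brightest probe set, as described for the members.

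A gene was tested where at least 1 group of the fit had a mean at or above the 40th percentile of all values (6.55). Linear models over groups were fitted in limma 3.58.1 (R 4.3.3) for each segment with normal cord, and over all 167 cord arrays for comparisons of segments. Days were weighted equally. Adjusted p-values are Benjamini-Hochberg values within a comparison, called below 0.05. Tables and figures used Python 3.11.15, pandas 2.3.3, numpy 2.4.6 and matplotlib 3.10.9. The number of arrays, 3 a group, limits the precision. The p-values measure the spread between arrays, which the labels give as biological replicates. Arrays of injured cord are pools of 4 animals, and for normal cord no pool size is given.

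Members and lists were chosen with earlier results of these data known. All 8 members were to be named in every comparison, from each pathway list the 3 called genes with the largest change in untreated lesions and the 3 in the rostral segment on days 10 to 30, and for each member the 2 genes most alike in pattern. The 5 contrasts between differences and 3 between times were added after the values were seen. The scripts were first tested on simulated data.

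Alternatives were a replicate block, leaving out replicates, array weights, a trended robust prior, no filter, only the groups compared, a second quantile normalization, other probe sets or the mean of all, a 2-fold minimum, and days matched for RT1-CE10. Promoter sequences are RefSeq's on GRCr8.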

Additional observations from a re-analysis of the deposited data

Results flagged for a closer look

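The reference RNA arrays, which enter no comparison, carried signal of 4 members above all normal cord arrays. This RNA is a mixture from rat cell lines. Their means were 10.89 ± 0.07 for Inhba, 9.05 ± 0.04 for Tgfb3, 8.53 ± 0.10 for Tgfb1 and 8.74 ± 0.05 for Tgfb2 (SD, n = 5 technical repeats), against highest normal cord values of 8.88, 8.07, 6.50 and 8.61 for these genes.

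The other results stand here because a difference between groups differed, by limma's test of that contrast, between times or segments. The tube alone difference from lesion control in the rostral segment, days 60 to 90 minus days 1 to 30, was 1.64 for Gdf10 (adjusted p = 7.52e-05), 0.62 for Tgfb3 (adjusted p = 0.00789) and 0.52 for Bmp4 (adjusted p = 0.00267). The NT-3 tube difference from lesion control in the lesion, days 60 to 90 minus days 10 to 30, was 0.88 for Tgfb3 (adjusted p = 1.20e-05), 0.79 for Gdf10 (adjusted p = 0.00452), 0.72 for Bmp4 (adjusted p = 0.0124) and -0.38 for Tgfbr1 (adjusted p = 0.0164). The NT-3 tube difference in the lesion minus that in the rostral segment was 1.39 for Inhba (adjusted p = 8.61e-18), 0.66 for Bmp4 (adjusted p = 1.48e-07) and 0.41 for Tgfb2 (adjusted p = 2.53e-05). In the same contrast it was 0.28 for Tgfb1 (adjusted p = 0.0328), -0.29 for Tgfb3 (adjusted p = 0.0189) and 0.26 for Tgfbr1 (adjusted p = 0.000614). The lesion minus the caudal segment gave 1.21 for Inhba (adjusted p = 1.70e-14), 0.59 for Bmp4 (adjusted p = 3.12e-06), -0.51 for Tgfb3 (adjusted p = 3.01e-05) and 0.35 for Tgfb2 (adjusted p = 0.000428). These contrasts were chosen after the values were seen, and the calls of Tgfb1 and Tgfb3 between lesion and rostral segment depend on single replicate numbers, as given above.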

How the results depend on the processing

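Of 3582 recomputed member tests, the 2-fold minimum left out, 3445 kept their side of the threshold, 87 lost the call and 47 gained it. Sign changes between uncalled fits count as kept. The other 3 tests, called in 1 fit, reversed with second probe sets. They were Inhba in late lesion control lesions against normal cord (-0.072) and in tube alone against lesion control lesions on day 3 (-0.86). The last was Tgfb2 in late lesions against the rostral segment (-0.21). The cause was not tested.

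Counts of called members, of 7 unless single days are named, are listed where they moved by over 1.5 times. With a 2-fold minimum, which only removes calls, they were 0 against 3 in caudal against rostral segment, lesion control, days 10-30, 3 against 6 in lesion against rostral segment, lesion control, days 10-30, 3 against 7 in lesion against rostral segment, lesion control, days 60-90, 2 against 5 in lesion control against normal cord, caudal, days 1-3, 3 against 7 in lesion control against normal cord, caudal, days 10-30, 3 against 6 in lesion control against normal cord, caudal, days 60-90, 4 against 7 in lesion control against normal cord, lesion, days 60-90, 0 against 5 in lesion control against normal cord, rostral, days 1-3, 3 against 6 in lesion control against normal cord, rostral, days 60-90, 3 against 5 in lesion control late against early, caudal, 3 against 6 in lesion control late against early, rostral, 0 against 1 in NT-3 tube against lesion control, caudal, 1 against 7 in NT-3 tube against lesion control, lesion, 0 against 1 in NT-3 tube against lesion control, rostral, 2 against 5 in NT-3 tube against tube alone, lesion, day 3, 1 against 5 in NT-3 tube against tube alone, rostral, 71 against 118 in single days of lesion control against normal cord, 14 against 37 in single days of NT-3 tube against lesion control, 77 against 122 in single days of NT-3 tube against normal cord, 5 against 19 in single days of NT-3 tube against tube alone, 2 against 10 in single days of tube alone against lesion control, 52 against 84 in single days of tube alone against normal cord, 0 against 2 in tube alone against lesion control, caudal, 0 against 6 in tube alone against lesion control, rostral. With the other probe set they were 4 against 7 in lesion against rostral segment, lesion control, days 60-90, 3 against 5 in lesion control against normal cord, caudal, days 1-3, 4 against 7 in lesion control against normal cord, caudal, days 10-30, 0 against 1 in NT-3 tube against lesion control, caudal, 0 against 2 in tube alone against lesion control, caudal, 1 against 0 in tube alone against lesion control, lesion, day 3. In these other-set counts Tgfbr1, whose other set lay below the filter on dim genes, was not tested and stands as not called. With the mean of all probe sets they were 0 against 1 in NT-3 tube against lesion control, caudal, 1 against 0 in tube alone against lesion control, lesion, day 3. With array weights they were 6 against 3 in caudal against rostral segment, lesion control, days 10-30, 2 against 0 in caudal against rostral segment, lesion control, days 60-90, 3 against 1 in NT-3 tube against lesion control, caudal, 3 against 1 in NT-3 tube against lesion control, rostral, 3 against 0 in tube alone against lesion control, lesion, day 3. On days matched for RT1-CE10 they were 0 against 1 in NT-3 tube against lesion control, caudal, 3 against 1 in NT-3 tube against lesion control, rostral, 2 against 5 in NT-3 tube against tube alone, rostral. A second quantile normalization gave 3 against 5 in lesion control against normal cord, rostral, days 1-3, 2 against 1 in NT-3 tube against lesion control, rostral. Only the groups compared gave 1 against 2 in tube alone against lesion control, caudal. A trended robust prior and no dim filter each gave 1 against 0 in tube alone against lesion control, lesion, day 3.

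Replicate numbers did not pair the samples: in 7 of 50 pairs of arms, 2 of 20 of lesion control with normal cord and 7 of 34 of segments did every same-numbered deviation correlate above 0.1. The replicate block gave 1 against 0 in caudal against rostral segment, lesion control, days 60-90 (Gdf10), 1 against 0 in tube alone against lesion control, lesion, day 3 (Tgfb3), and changed no other member call.

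Leaving out replicates, the counts ran from 0 to 1 in NT-3 tube against lesion control, caudal, from 0 to 1 in NT-3 tube against lesion control, rostral, from 0 to 2 in NT-3 tube against tube alone, caudal, from 3 to 6 in NT-3 tube against tube alone, lesion, day 3, from 4 to 5 in NT-3 tube against tube alone, rostral, from 2 to 3 in caudal against rostral segment, lesion control, days 10-30, from 4 to 5 in lesion control against normal cord, caudal, days 1-3, from 6 to 7 in lesion control against normal cord, caudal, days 10-30, from 3 to 5 in lesion control against normal cord, rostral, days 1-3, from 1 to 2 in tube alone against lesion control, caudal, from 0 to 1 in tube alone against lesion control, lesion, day 3, from 5 to 6 in tube alone against lesion control, rostral. Other window, arm and segment counts stayed. Moves in added contrasts stand above. The number of arrays, 3 a group, limits the precision.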
